A study of Homo sapiens with 6 samples.

Results

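The PDGF, KIT and CSF1 receptor systems were examined in COV434 cells after BRG1 reexpression. They were 10 of the 19899 genes of the deposited count table, matched by symbol. They comprise 4 genes for receptor tyrosine kinases (PDGFRA, PDGFRB, KIT and CSF1R) and 6 genes for their ligands (PDGFA, PDGFB, PDGFC, PDGFD, KITLG and CSF1). COV434 is an established cell line that the study counts among SCCOHT lines. SCCOHT is the hypercalcemic type of small cell ovarian carcinoma, a tumor that lacks the chromatin remodeling ATPase BRG1, encoded by SMARCA4. RNA-seq was done on 3 Control samples and on 3 BRG1 samples, which were transfected with PBJ5-BRG1. Control samples received a plasmid that the study gives as pCMV-neo or pCDNA3-neo. Both groups were parental cells that also received the puromycin resistance plasmid pBABE-puro, with 10 to 6.25 parts of plasmid to 1 part of it, and were selected as a pool on 2 to 3 µg/ml puromycin for 3 days, beginning 24 hours after transfection. The backbones of the control and BRG1 plasmids differ by name, so an effect of the backbone and an effect of BRG1 cannot be told apart. In bulk RNA, more cells of a kind and more transcript per cell cannot be told apart either.

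These receptors share a layout of immunoglobulin-like domains outside the cell and a split kinase domain inside it. Ligands are dimers that bring a pair of receptor chains together, after which the chains phosphorylate each other and recruit SH2 domain proteins. PDGF receptors are known from fibroblasts and pericytes, KIT from germ cells, mast cells and melanocytes, and CSF1R from macrophages. In the ovary, KIT ligand from granulosa cells acts on KIT in the oocyte.

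Libraries held between 29699741 and 63613710 estimated counts, and BRG1 sample 3 was the shallowest. SMARCA4 served as the check of the labels. Its normalised count (an estimated count divided by the DESeq2 size factor of the sample) was 1551 ± 119 in Control cells and 88773 ± 17220 with BRG1 (SD, n = 3), plasmid transcripts included. The other ATPase gene, SMARCA2, which SCCOHT tumors also lack, was at 16.4 ± 10.9 and 24.1 ± 15.9 (SD, n = 3).

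Expression of PDGFRA, PDGFRB, PDGFB, PDGFC and CSF1 was higher in BRG1 than in Control samples. A gene was called when its DESeq2 p-value, adjusted by Benjamini-Hochberg over all tested genes, was under 0.05. By this rule 5 of the 10 genes were called higher and 0 lower, beside 11.0% of all 16002 tested genes called higher and 1.84% called lower. None of the 10 was lower at an unadjusted p under 0.05 in DESeq2 (0 genes) or edgeR (0 genes). The quasi-likelihood test of edgeR, which had a value for 9 of the 10, called 4, beside 9.57% of its 14246 genes called higher and 1.02% lower, and the exception was PDGFC. The same 4 were called by limma-voom (background 9.31% higher, 1.19% lower), and all 5 by DESeq2 (13.4% and 6.61%) and edgeR (13.7% and 5.68%) with the replicate number as a block. In 6 genes, the 5 called ones and CSF1R, every BRG1 sample lay above every Control sample, which held for 15.4% of the 18096 genes with a count, while 8.88% lay below in the same way, among them none (0) of the 10. The median log2 fold change (log2FC) of the 10 genes was 1.64, against -0.01 over all tested genes.

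**Figure D1:**
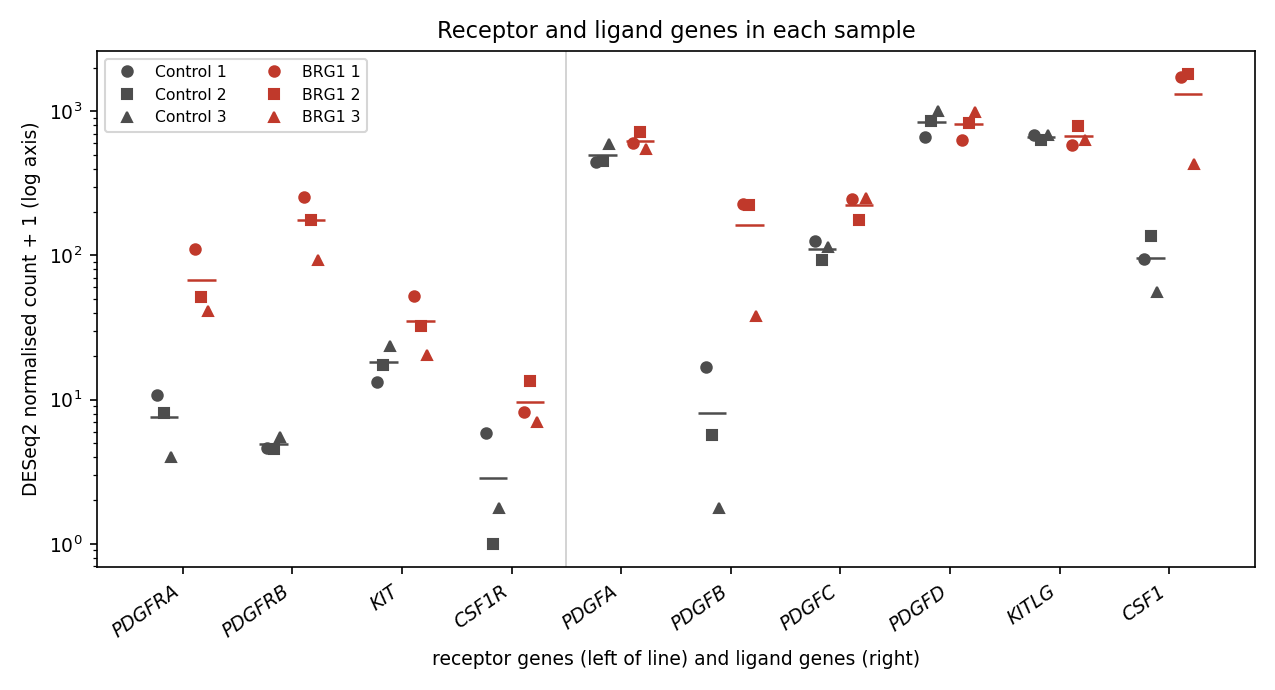
DESeq2 normalised count plus 1 of each gene on a log axis in the 3 Control (grey) and 3 BRG1 (red) samples, with symbols for the replicate number and lines at group means. The BRG1 points of PDGFRA, PDGFRB, PDGFB, PDGFC and CSF1 sit above all Control points, whereas those of PDGFA, PDGFD, KITLG and KIT overlap Control.

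The receptors were considered first. PDGFRB encodes the receptor that binds PDGF-BB and PDGF-DD. On GRCh38 it spans 150113839 to 150155872 of chromosome 5, minus strand. Its normalised counts were 3.65, 3.52 and 4.54 in Control samples 1 to 3 and 253.9, 175.3 and 92.5 in BRG1 samples 1 to 3. The groups did not overlap, Control was near the limit of detection, and BRG1 sample 3 was the lowest of its group. PDGFRB rose with a log2FC of 5.46 and a standard error of 0.61 (DESeq2 adjusted p 3.3e-17, edgeR adjusted p 0.000472). The Control values rest on 3, 3 and 6 estimated counts, and the 95% interval of the log2FC ran from 4.26 to 6.66.

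PDGFRA encodes the receptor chain that binds PDGF-AA and PDGF-CC as well as PDGF-BB. It maps to chromosome 4 (54229280 to 54298245, plus strand), and 16.1% of its exonic bases are shared with a gene model on the same strand, so the division of reads there is uncertain. Its normalised counts were 9.75, 7.04 and 3.03 in Control and 109.5, 50.7 and 40.3 with BRG1. Again the groups were apart and BRG1 sample 1 was the highest. PDGFRA rose with a log2FC of 3.40 and a standard error of 0.67 (DESeq2 adjusted p 8.1e-06, edgeR adjusted p 0.00851). Its 95% interval ran from 2.08 to 4.72.

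KIT, the receptor for stem cell factor, is the neighbor of PDGFRA on chromosome 4 (54657267 to 54740783, plus strand). Its normalised counts were 12.2, 16.4 and 22.7 in Control and 51.5, 31.6 and 19.4 with BRG1. The groups overlapped, since BRG1 sample 3 lay below Control sample 3. The log2FC was 1.00 with a standard error of 0.59 (DESeq2 adjusted p 0.361), and its 95% interval ran from -0.16 to 2.17. Without BRG1 sample 1 it was 0.58 (DESeq2 adjusted p 0.902). Between same-numbered samples the fold was 4.23, 1.92 and 0.854.

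CSF1R, the receptor for CSF1, lies beside PDGFRB on chromosome 5 (150053291 to 150113372, minus strand), 0.466 kb from it. It had 4, 0 and 1 estimated counts in Control and 10, 15 and 4 in BRG1 samples. Every BRG1 sample was higher after normalisation, the lowest at 5.97 against 4.87 in the highest Control sample, but no change was detectable at this depth. The log2FC was 2.26 with a standard error of 1.33 (DESeq2 adjusted p 0.359) and a 95% interval from -0.36 to 4.87, and edgeR left CSF1R out for its low counts. Without Control sample 1 the log2FC was 4.24 (DESeq2 adjusted p 0.155).

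Sequences upstream of the receptor genes that were called are shown because these genes rose together, and that of CSF1R because it starts beside the end of PDGFRB. They are the 250 bases before a RefSeq start on GRCh38.p14, read 5′ to 3′ on the strand of the gene. Capitals mark matches to TGANTCA, the motif of AP-1, a factor the study examined, or to GAAA, any pair of bases and GAAA, a motif of interferon-stimulated response element type. Both motifs were searched on both strands.
PDGFRB, chr5:150155846-150156095, minus strand: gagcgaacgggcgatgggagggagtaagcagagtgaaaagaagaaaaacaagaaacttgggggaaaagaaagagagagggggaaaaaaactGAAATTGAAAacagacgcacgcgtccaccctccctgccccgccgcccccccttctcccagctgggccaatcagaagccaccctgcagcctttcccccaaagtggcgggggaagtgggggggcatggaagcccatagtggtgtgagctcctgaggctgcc
PDGFRA, chr4:54229043-54229292, plus strand: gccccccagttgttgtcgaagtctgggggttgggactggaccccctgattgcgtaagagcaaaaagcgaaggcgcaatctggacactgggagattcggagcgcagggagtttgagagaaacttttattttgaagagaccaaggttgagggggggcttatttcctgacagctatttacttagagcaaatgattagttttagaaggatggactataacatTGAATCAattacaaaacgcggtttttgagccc
CSF1R, chr5:150113366-150113615, minus strand: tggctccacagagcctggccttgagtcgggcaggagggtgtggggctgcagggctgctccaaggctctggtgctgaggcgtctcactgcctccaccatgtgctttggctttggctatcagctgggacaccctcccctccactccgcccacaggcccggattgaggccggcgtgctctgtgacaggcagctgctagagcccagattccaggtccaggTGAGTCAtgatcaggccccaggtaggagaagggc
PDGFRB held GAAATTGAAA, with its first base 159 bases before the start. PDGFRA held TGAATCA with its first base 32 bases before the start, and CSF1R held TGAGTCA with its first base 34 bases before. Among 12 windows of 7 of the 10 genes, 2 held the AP-1 motif, 1 held the other and 9 held neither, PDGFRA and CSF1R each having a further window without a match. Of 35116 RefSeq windows of the same length, 6.57% held the AP-1 motif and 3.02% held the other. The table of windows had none for PDGFB, PDGFC and CSF1. A match is a run of letters and was not tested for binding.

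The position of the receptor genes in a pair on each of 2 chromosomes was followed into their surroundings, by the 3 nearest genes of the table on each side. Of 12 such genes outside the PDGF, KIT and CSF1 systems, CHIC2 was called higher (1 gene) and 0 were called lower. Over all genes 11.0% were called higher and 1.84% lower. GSX2, CDX1, SLC6A7 and CAMK2A had too few counts for an adjusted p and could not be called. CHIC2, 164.7 kb from PDGFRA, had 394 ± 94.1 normalised counts in Control cells and 1152 ± 573 with BRG1 (SD, n = 3), with a log2FC of 1.55 (DESeq2 adjusted p 0.000966, edgeR adjusted p 0.0466). GSX2, the nearest gene of the table to PDGFRA, had 0 counts in every sample. On the other side of KIT, KDR, which encodes a VEGF receptor, had a log2FC of 0.14 (DESeq2 adjusted p 0.882) and SRD5A3 one of -0.47 (DESeq2 adjusted p 0.0543, or 0.00212 with the replicate number as a block). TMEM165 had a log2FC of 0.04, LNX1 held few counts (5.92 ± 2.26 in Control, SD, n = 3) and neither was called (DESeq2 adjusted p 0.935 and 0.698).

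At the locus on chromosome 5, HMGXB3 ends 0.148 kb from the end of CSF1R on the opposite strand and had 4734 ± 621 normalised counts in Control and 5216 ± 1101 with BRG1 (SD, n = 3), with a log2FC of 0.14. TIGD6 and SLC26A2 had log2FC values of 0.13 and 0.39, and none of the 3 was called (DESeq2 adjusted p 0.821, 0.828 and 0.413). Upstream of PDGFRB, CDX1, SLC6A7 and CAMK2A had a mean of 0 in Control and at most 0.277 in BRG1 samples. PDGFRB was thus the 1 gene called in this stretch of the table.

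Among the ligands, CSF1 had the highest mean level per kb in BRG1 samples. CSF1 encodes colony stimulating factor 1, the growth factor of macrophages, and maps to chromosome 1 (109910242 to 109930992, plus strand). Its normalised counts were 93.8, 134.8 and 54.5 in Control and 1717, 1807 and 431 with BRG1. No BRG1 sample overlapped Control, and sample 3 was the lowest in both groups. CSF1 rose with a log2FC of 3.81 and a standard error of 0.51 (DESeq2 adjusted p 2.1e-12, edgeR adjusted p 0.00465). Between same-numbered samples the fold was 18.3, 13.4 and 7.91. Its receptor gene CSF1R stayed at a few counts, as given above.

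PDGFB encodes the PDGF-B chain, whose dimer binds both PDGF receptors. It maps to chromosome 22 (39223359 to 39244982, minus strand). Its normalised counts were 15.8, 4.69 and 0.757 in Control and 227.0, 222.6 and 37.3 with BRG1. The lowest BRG1 sample, number 3, was still above the highest Control sample. PDGFB rose with a log2FC of 4.57 and a standard error of 0.88 (DESeq2 adjusted p 3.4e-06, edgeR adjusted p 0.0207). Control sample 1 carried much of the Control signal, and without it the log2FC was 6.02.

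PDGFC encodes a chain that is secreted with a CUB domain and becomes active once a protease removes that domain. It maps to chromosome 4 (156760454 to 156971799, minus strand), far from PDGFRA and KIT. Its normalised counts were 125.5, 91.5 and 114.3 in Control and 245.9, 176.1 and 247.8 with BRG1. PDGFC was the called gene in which BRG1 sample 3 was not the lowest of its group, and its fold between same-numbered samples was 1.96, 1.93 and 2.17. It rose with a log2FC of 1.01 and a standard error of 0.27 by DESeq2 (adjusted p 0.00192, and 0.00228 with the replicate block). The call was not made by edgeR (adjusted p 0.0514) or limma-voom (adjusted p 0.0550) and was made by edgeR with the block (adjusted p 0.0121).

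PDGFA, the chain of PDGF-AA, maps to chromosome 7 (497258 to 520296, minus strand). It had 445.9, 450.3 and 591.3 normalised counts in Control and 598.4, 721.8 and 547.8 with BRG1. The groups overlapped and PDGFA was not called (log2FC 0.33 with a standard error of 0.21, 95% interval from -0.08 to 0.74, DESeq2 adjusted p 0.416).

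PDGFD, the other chain with a CUB domain, maps to chromosome 11 (103907189 to 104164379, minus strand), and 4.53% of its exonic bases are shared with DDI1 on the opposite strand, a gene at 3 counts or fewer in every sample. It had 659, 852 and 999 normalised counts in Control and 632, 830 and 989.6 with BRG1. Same-numbered samples were close to each other, with folds of 0.959, 0.973 and 0.990. The log2FC was -0.04 with a 95% interval from -0.52 to 0.45 (DESeq2 adjusted p 0.966), and with the block it was likewise not called (DESeq2 adjusted p 0.916).

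KITLG, the gene for stem cell factor, maps to chromosome 12 (88492793 to 88580851, minus strand). It had 683, 631 and 685 normalised counts in Control and 586, 788 and 636 with BRG1. The log2FC was 0.01 with a 95% interval from -0.35 to 0.36 (DESeq2 adjusted p 0.991). Neither KITLG nor its receptor gene KIT was called under any of the fits run.

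**Figure D2:**
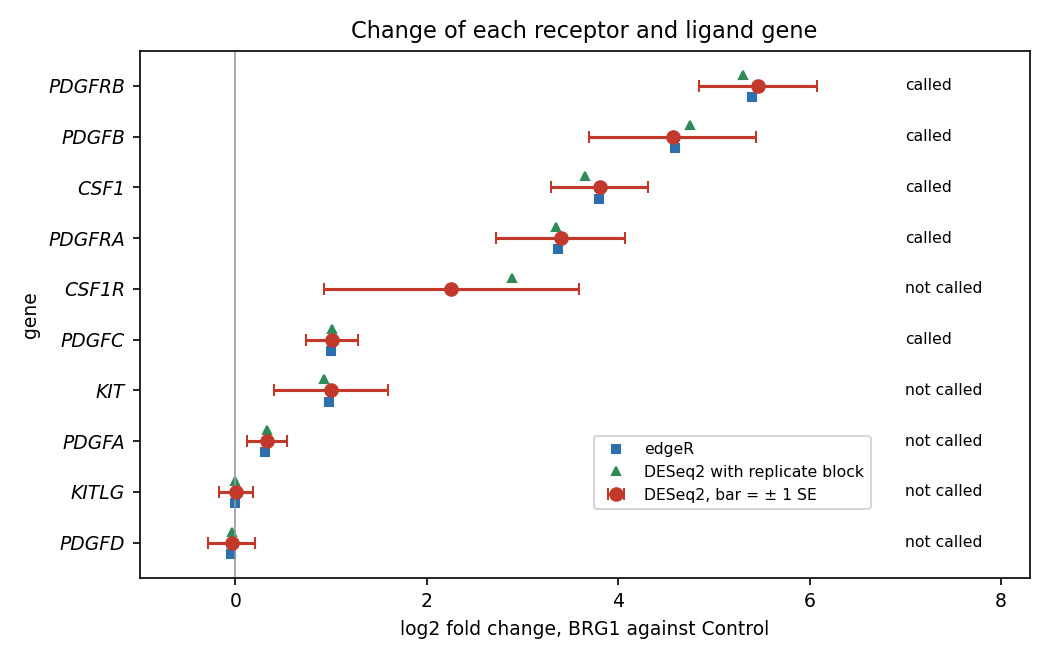
Log2 fold change of BRG1 against Control for each gene, with DESeq2 values as circles with bars of 1 standard error, edgeR as squares and DESeq2 with the replicate block as triangles. Values run from 5.46 for PDGFRB to -0.04 for PDGFD. CSF1R, at 2.26, has the widest bar and no edgeR value.

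BRG1 sample 3 was the lowest of its group in 4 of the 5 called genes, and BRG1 sample 1 was the highest in 3. The level in sample 3 as a percentage of that in sample 1 was 36.4% for PDGFRB, 36.8% for PDGFRA, 16.4% for PDGFB and 25.1% for CSF1, against 100.8% for PDGFC and 72.3% for SMARCA4. Normalised counts of SMARCA4 were 108655, 79075 and 78589 in BRG1 samples 1, 2 and 3. Without BRG1 sample 3 the log2FC was 5.76 for PDGFRB, 3.65 for PDGFRA, 5.07 for PDGFB and 4.24 for CSF1, and the same 5 genes were called. The part of sample depth or of plasmid level in these differences was not tested.

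To compare genes with each other, normalised counts were divided by the length of the canonical transcript in kb. In Control the order of these levels was led by PDGFD with 218 ± 44.5, PDGFA with 181 ± 30.2 and KITLG with 122 ± 5.67 (SD, n = 3). PDGFD and PDGFA overlapped, and KITLG was below both. PDGFC with 24.2 ± 3.79 and CSF1 with 23.6 ± 10.1 followed and overlapped. KIT with 3.32 ± 1.03, PDGFB with 1.90 ± 2.10, PDGFRA with 1.04 ± 0.53, PDGFRB with 0.685 ± 0.098 and CSF1R with 0.491 ± 0.686 stood last, each overlapping the next. All 4 receptor genes were thus below PDGFC, CSF1, KITLG, PDGFA and PDGFD in Control.

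In BRG1 samples CSF1 stood first with 330.1 ± 193 per kb, although its samples overlapped PDGFA with 227 ± 32.7, which in turn overlapped PDGFD with 213 ± 46.7 (SD, n = 3). KITLG had a level of 123 ± 19.4. PDGFC with 48.9 ± 8.94, PDGFB with 43.5 ± 29.0, PDGFRB with 30.5 ± 14.2, PDGFRA with 10.5 ± 5.85 and KIT with 6.64 ± 3.15 formed a run in which each overlapped the next. CSF1R was last with 2.24 ± 0.90. PDGFRB passed from below KIT in every Control sample to above KIT in every BRG1 sample.

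Whether the makeup of the PDGF receptors and ligands differed was examined with shares of these levels per kb. PDGFRB made up 29.6%, 35.9% and 62.7% of the summed level of PDGFRA and PDGFRB in Control and 72.2%, 79.5% and 72.0% in BRG1 samples. Every BRG1 sample was above every Control sample, and the means differed by 31.8 percentage points. The two-sided exact permutation p was 0.1, the smallest that 3 samples against 3 allow, and 0.25 after adjustment over the 5 shares tested. The Control shares rest on the few counts given above.

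PDGFB made up 1.16%, 0.309% and 0.0405% of the summed level of the 4 PDGF ligands in Control and 12.2%, 10.3% and 1.92% in BRG1 samples, which is a difference in means of 7.66 percentage points (exact permutation p 0.1, adjusted 0.25). PDGFA took 42.6 ± 2.10% in Control and 42.6 ± 3.81% with BRG1, and PDGFD 51.1 ± 3.86% and 39.97 ± 8.46% (SD, n = 3). PDGFC took 5.80 ± 1.47% and 9.29 ± 2.28% (SD, n = 3). The shares of PDGFA, PDGFC and PDGFD overlapped between groups (exact permutation p 1, 0.2 and 0.2). PDGFA and PDGFD together thus made up most of the ligand level in each of the 6 samples.

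**Figure D3:**
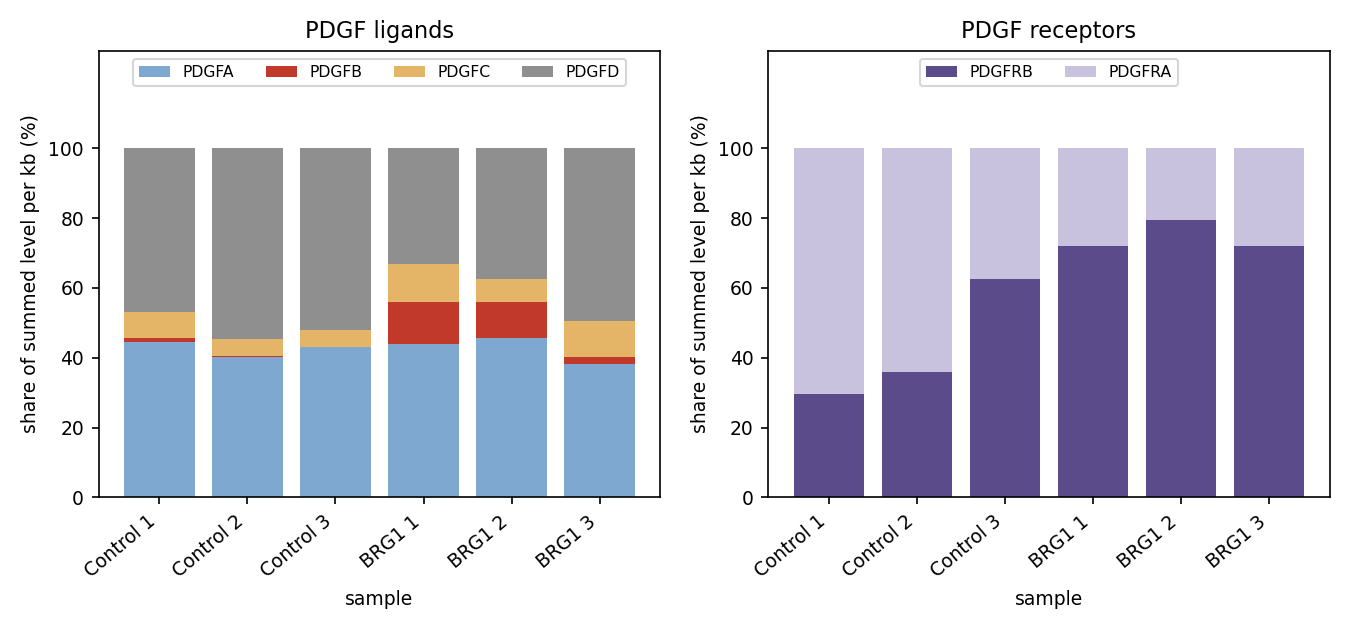
Stacked bars of the percentage of the summed level per kb taken by each PDGF ligand (left) and each PDGF receptor (right) in each sample. The PDGFB segment is at most 1.16% in Control and reaches 12.2% in BRG1 sample 1, and the PDGFRB segment is between 72.0% and 79.5% in BRG1 samples.

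The rest of the pathway was covered by 61 further genes in 4 lists. DESeq2 called 11 of them higher and 0 lower, edgeR 10 and 0, beside the 11.0% and 1.84% of all genes given above for DESeq2. With the replicate block DESeq2 called 13 higher and 2 lower, where 13.4% and 6.61% of all 15653 genes were called. The median log2FC of the 61 genes was 0.14.

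Of the 3 other genes of this receptor class and its ligands, FLT3LG, the ligand of the receptor FLT3, was called higher (1 gene). It had 23.3 ± 4.26 normalised counts in Control and 107.6 ± 10.6 with BRG1 (SD, n = 3), with a log2FC of 2.22 (DESeq2 adjusted p 6.2e-09, edgeR adjusted p 0.00312). FLT3 itself was at 23.9 ± 4.50 and 25.6 ± 6.25 (SD, n = 3) and was not called (DESeq2 adjusted p 0.966). IL34, the second known ligand of CSF1R, had a log2FC of 2.71 that was not called without the block (DESeq2 adjusted p 0.0844, edgeR adjusted p 0.124) and was called with it (log2FC 3.54, DESeq2 adjusted p 0.0186).

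Of 13 genes for proteases that activate or shed these proteins and for co-receptors, 4 were called higher and 0 lower by DESeq2. The shares over all genes were 11.0% and 1.84%. PLAT, the tissue plasminogen activator that cleaves the CUB domain from PDGF-CC, rose from 4.98 ± 2.01 to 85.0 ± 70.4 normalised counts (SD, n = 3), with a log2FC of 4.13 (DESeq2 adjusted p 5.9e-06, edgeR adjusted p 0.0132). PCSK5, a proprotein convertase, had a log2FC of 1.22 (DESeq2 adjusted p 3.0e-08). The neuropilin genes NRP2 and NRP1 had log2FC values of 3.36 and 1.01 (DESeq2 adjusted p 7.2e-12 and 0.0128), and that of NRP1 was not called by edgeR (adjusted p 0.0905). DESeq2 did not call NRP1 without Control sample 1 or 2 (adjusted p 0.0904 and 0.101) or without BRG1 sample 2 or 3 (adjusted p 0.0584 and 0.0834). PLAU, a protease that activates PDGF-DD, was at 2.28 ± 3.32 and 18.2 ± 13.04 normalised counts (SD, n = 3) and was not called (DESeq2 adjusted p 0.0934). The sheddase gene ADAM17 had a log2FC of -0.04 and the convertase gene FURIN one of 0.28, and neither was called (DESeq2 adjusted p 0.965 and 0.311).

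The list of 29 genes for adaptors and effectors of the activated receptors had a median log2FC of 0.02. Beside 11.0% of all genes called higher and 1.84% lower, 2 of the 29 were called higher and 0 lower. These were NCK2, an SH2 and SH3 adaptor (log2FC 1.03, DESeq2 adjusted p 7.6e-05, edgeR adjusted p 0.0119), and FYN, a SRC family kinase (log2FC 0.56, DESeq2 adjusted p 0.0169, edgeR adjusted p 0.0486). FYN was not called by DESeq2 without Control sample 1 or 2 or BRG1 sample 1 or 2 (adjusted p 0.155, 0.0866, 0.119 and 0.0896), nor by limma-voom with all samples (adjusted p 0.0507). With the block STAT3 was also called higher, with a log2FC of 0.37, and PIK3R3, a regulatory subunit of PI3 kinase, lower, with one of -0.42 (DESeq2 adjusted p 0.000163 and 0.0114).

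Of 16 genes for negative regulators, 14 had a DESeq2 adjusted p. By both DESeq2 and edgeR 4 were called higher and 0 lower. Over all genes DESeq2 called 11.0% higher and 1.84% lower, and edgeR 9.57% and 1.02%. INPP5D, which encodes the lipid phosphatase SHIP1, rose from 8.64 ± 5.50 to 96.3 ± 46.1 normalised counts (SD, n = 3), with a log2FC of 3.45 (DESeq2 adjusted p 1.6e-06). SOCS1, a suppressor of cytokine signaling, had a log2FC of 1.92 (DESeq2 adjusted p 0.00276), and was not called without BRG1 sample 1 or 2 (DESeq2 adjusted p 0.1105 and 0.0634). The receptor phosphatase PTPRJ and the adaptor SH2B3 had log2FC values of 1.14 and 0.75 (DESeq2 adjusted p 0.00286 and 0.00130), and PTPRJ was not called by limma-voom (adjusted p 0.0507). CBL, the ubiquitin ligase that marks activated receptors for degradation, was lower in every BRG1 sample than in any Control sample, and was called with the block (log2FC -0.31, DESeq2 adjusted p 0.0140) and not without it (log2FC -0.30, DESeq2 adjusted p 0.105). SLA held 3 counts or fewer in every sample.

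**Figure D4:**
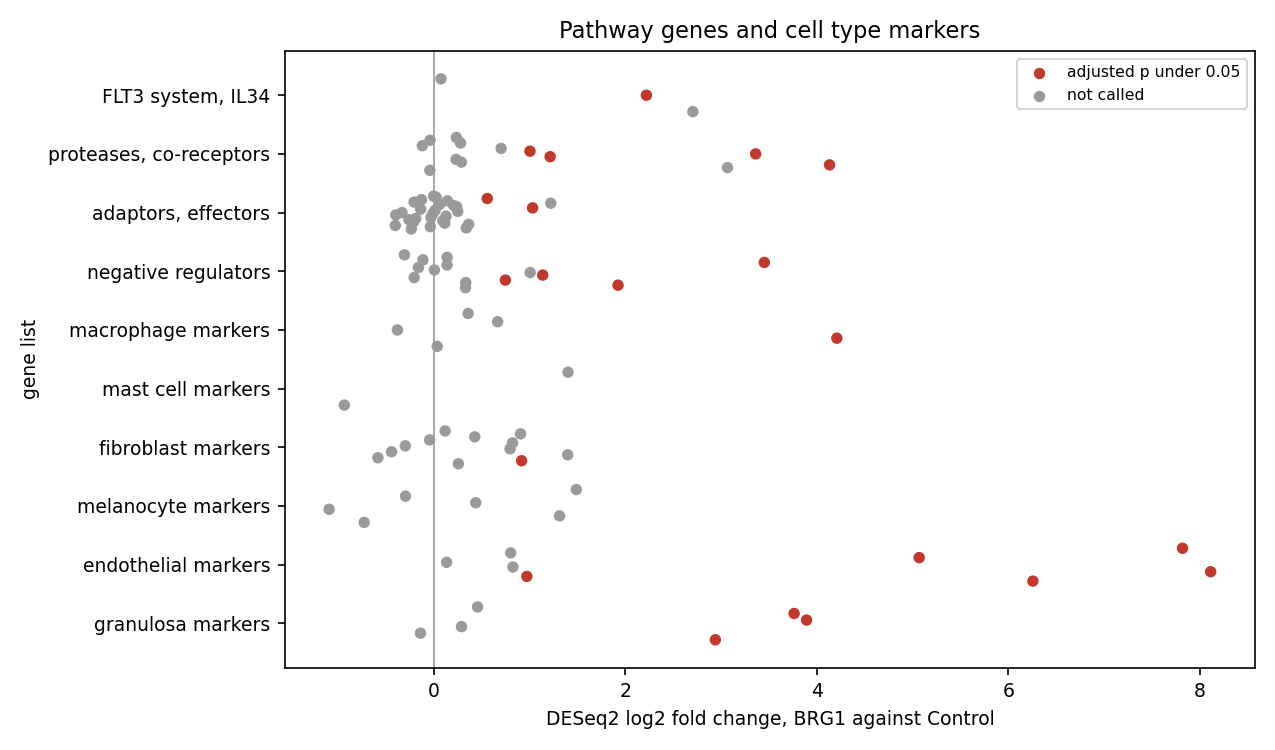
DESeq2 log2FC values, BRG1 against Control, of the genes with an adjusted p in the 4 pathway lists and 6 marker lists, with red points for an adjusted p under 0.05. The median of the 61 pathway genes is 0.14 and the largest value among them 4.13 for PLAT, and the points farthest to the right are the endothelial markers ROBO4 and CDH5, which held 3 counts or fewer in each Control sample.

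Markers of fibroblasts and pericytes, macrophages, mast cells and melanocytes, cell types known for these receptors, were measured beside them. Endothelial and granulosa cell markers were included too, and germ cells had no list. The lists were chosen with earlier results of these data known, so their called shares are descriptive. Over all genes DESeq2 called 11.0% higher and 1.84% lower. Of 12 fibroblast and pericyte markers, RGS5 was called higher (log2FC 0.92, DESeq2 adjusted p 0.00115) and 0 were called lower. The summed normalised count of the list was 13673 to 18834 in Control and 13375 to 19300 in BRG1 samples, none of its genes was at 0 in every sample, and COL3A1 (log2FC -0.04), ACTA2 (0.12), POSTN (-0.58), LUM (-0.44), COL1A2 (0.43), DCN (-0.30) and COL1A1 (0.91) were not called. With the block POSTN was called lower (DESeq2 adjusted p 0.000931). The other members were low and not called, with means in Control and BRG1 samples of 9.29 and 15.7 for FAP, 7.39 and 8.67 for THY1, 8.28 and 14.8 for CSPG4, and 1.68 and 4.58 for MCAM.

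Of 12 monocyte and macrophage markers 5 had an adjusted p. LYZ was called higher, from 1.06 ± 1.25 to 19.0 ± 4.57 normalised counts (SD, n = 3, DESeq2 adjusted p 0.00261), and 0 were called lower. CD163, SPI1, TYROBP, AIF1 and MRC1 held 3 counts or fewer in every sample. PTPRC, at 505 ± 167 and 519.7 ± 185, and CD68, at 1736 ± 700 and 2757 ± 812 (SD, n = 3), made up most of the summed level of 1862 to 2877 in Control and 2436 to 3947 in BRG1 samples, and CD68 was called with the block alone (DESeq2 adjusted p 0.00132 against 0.218). Of 8 mast cell markers 2 had an adjusted p and 0 were called. TPSAB1, TPSB2, MS4A2, CMA1 and SIGLEC6 were at 0 in every sample. The mast cell sum was 8.53 to 19.9 in Control and 10.2 to 19.4 in BRG1 samples. Of 6 melanocyte markers 0 were called, and the list's median log2FC was 0.07. MITF and PMEL had log2FC values of -0.29 and -1.09. The low genes TYR, DCT, MLANA and TYRP1 had values of 1.31, 1.49, 0.44 and -0.73. The sum was 1234 to 1582 in Control and 490 to 1103 in BRG1 samples. PMEL alone was at 1043 ± 223 and 491 ± 376 (SD, n = 3).

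Of 8 endothelial markers 5 were called higher and 0 lower, beside the 11.0% and 1.84% over all genes, and their sum was 1733 to 2644 in Control and 6747 to 7072 in BRG1 samples. VWF, which encodes von Willebrand factor, rose from 44.8 ± 32.0 to 3498 ± 238 normalised counts (SD, n = 3, DESeq2 adjusted p 5.7e-55). FLT1 and TEK, genes for receptors of VEGF and angiopoietins, had log2FC values of 5.07 and 0.97, and ROBO4 and CDH5 held 3 counts or fewer in every Control sample and 101.4 ± 15.5 and 143 ± 117 normalised counts with BRG1 (SD, n = 3). KDR, the most abundant of the 8 in Control (1785 ± 437, against 1961 ± 497 with BRG1, SD, n = 3), PECAM1 and CLDN5 were not called (DESeq2 adjusted p 0.882, 0.817 and 0.837), and none of the 8 was at 0 in every sample. Of 10 granulosa markers 6 had an adjusted p, and 3 were called higher and 0 lower, beside the same 11.0% and 1.84%. Called were CYP19A1 (log2FC 3.76), INHBA (2.94) and FST (3.89), and AMH (0.46), HSD17B1 (0.29) and INHA (-0.14) were not called. FOXL2, FSHR and AMHR2 held 3 counts or fewer in each of the 6 samples, AMHR2 being at 0. NR5A1, also without an adjusted p, was at 1.54 ± 1.33 and 1.59 ± 1.67 normalised counts (SD, n = 3). The sum of the list was 1035 to 1223 in Control and 1945 to 2994 in BRG1 samples. With 2 groups, every gene that DESeq2 called higher, 1764 of 16002 tested, was higher in the same BRG1 samples. A rise of PDGFRA, PDGFRB, PDGFB, PDGFC and CSF1 together with called markers was thus fixed by the design. In the other lists RGS5 and LYZ were called. Most macrophage and mast cell markers had no adjusted p and could not be called. The part of any marker's cell type in the changes of the receptor and ligand genes was not tested.

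Finally, the genes with the pattern most like that of each called gene were listed by Pearson's r of log2(normalised count + 1) over the 6 samples, among 11681 genes with a mean of at least 100. They were TMEM52B and PDCD1LG2 for PDGFRB (r 0.999 for both), THSD1 and ARHGAP23 for PDGFRA (r 0.997 and 0.996), CCND2 and MAP2 for PDGFB (r 0.999 and 0.995), CHMP5 and YEATS2 for PDGFC (r 0.993 and 0.981), and PRICKLE1 and TLR4 for CSF1 (r 0.999 and 0.997). No p is given, since the 6 samples fall into a pair of groups, and TMEM52B and PDCD1LG2 had a mean of 0 in Control. For PDGFRB 667 genes, for CSF1 447, for PDGFRA 414, for PDGFB 155 and for PDGFC 43 exceeded an r of 0.95.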

How the data were processed

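RNA was extracted from frozen pellets of 6 COV434 samples, and poly(A) libraries without strand information were made from 500 ng of RNA and sequenced as pairs of 78 bases. The authors aligned reads with STAR (2.5.3a), quantified transcripts with salmon (0.8.2) on hg38 with a GENCODE annotation and summed them to genes. The deposited table holds estimated counts for gene symbols, scaled by the authors for transcript length (lengthScaledTPM) and not divided by library size. Because strand was lost, antisense reads add to a gene.

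Estimated counts were rounded. BRG1 and Control were compared with the DESeq2 Wald test (1.42.0, R 4.3.3) without covariates, following the study's methods. The edgeR quasi-likelihood test (4.0.16) and limma-voom (3.58.1) were alternatives, with TMM factors in DESeq2, a filter of at least 10 counts in at least 3 samples, an adjusted p under 0.01 and each sample left out in turn. In a test on simulated counts the false calls of DESeq2 exceeded its threshold and those of edgeR did not. For this reason edgeR values stand beside DESeq2 calls. The simulation had few changed genes and no replicate pairing, and whether its rates hold for these data was not tested. Group means are given with SD, and intervals are Wald intervals. Samples with the same replicate number resembled each other. Over 12874 genes, their deviations from group means correlated with r 0.526, 0.487 and 0.598. The main tests did not use the number, and the fit with the number as a block was an alternative. The study calls replicates of other lines, such as BIN67, biological. For the COV434 samples it does not use that word, and their titles only number the replicates.

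Coordinates, exon overlap and canonical transcript lengths are from GENCODE release 44 on GRCh38, the assembly of the authors' annotation. It held 18214 of the 19899 symbols. Upstream sequences are from RefSeq. The genes named are the 10 receptor and ligand genes, SMARCA4, called pathway genes, markers with a mean of at least 100 in a group, the 3 nearest genes on each side of a receptor gene, and the 2 genes most like each called one. SMARCA2, CBL, STAT3, PIK3R3, IL34, FLT3, PLAU, ADAM17, FURIN, LYZ, SLA, INHA and low markers are named in addition, after their values were seen. The genes and lists were chosen with earlier results of these data known.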

Additional observations from a re-analysis of the deposited data

How the results depend on the processing

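The calls of PDGFRA, PDGFRB, PDGFB and CSF1 kept their direction and stayed under the threshold in all 12 other fits, with log2FC values of 2.83 to 3.79, 5.09 to 5.76, 3.99 to 6.02 and 3.52 to 4.24. The number called higher was 4 or 5 and the number called lower 0 in every fit run. When each sample was left out in turn the number called higher was 5 throughout. The log2FC of PDGFC was 1.00 with edgeR (adjusted p 0.0514) and 0.98 with limma-voom (adjusted p 0.0550), where the call was lost, and 0.89 to 1.16 without 1 sample (highest DESeq2 adjusted p 0.0491, without BRG1 sample 1). The cause was not tested. KITLG, which was never called, had a log2FC of -0.0045 with edgeR, -0.021 with limma-voom, -0.0085 with TMM factors and, under the replicate block, -0.0024 by DESeq2 and -0.015 by edgeR, and -0.13 to 0.10 without 1 sample. PDGFD ran from -0.20 to 0.12 without 1 sample. Pathway genes called lower (0) were 2 with the replicate block in DESeq2 and 2 in edgeR, and those called higher (11) ran from 8 to 13. The difference in the share of PDGFA turned to 0.102 percentage points with merged exon length, an alternative chosen after seeing the data, and ran from -1.51 to 2.14 without 1 sample. The other 4 shares kept their direction. With mean differences within replicate numbers as the block, the exact p of the PDGFRB share was 0.25, the smallest that 3 pairs allow. Apart from PDGFC, which edgeR called under the block alone, the block changed no call among the 10 genes. Low counts limit PDGFRA, PDGFRB, PDGFB, KIT and CSF1R, whose Control means were under 20 normalised counts.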
